A study of Rattus norvegicus with 24 samples.

Results

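Primary neurons from the striatum of neonatal rats, grown to day 7 in vitro, were exposed for 60 min to iBD2 together with DMSO (2 libraries) or to DMSO alone (2 libraries). These 4 of the 23 libraries analysed here were chosen by their titles and all belong to the second of 3 experiments. Within that experiment 2 further libraries were labelled SKF with iBD2, of which 1 was analysed here, and 2 had received SKF with DMSO. SKF is the short name of agonists of the D1 dopamine receptor. In the first experiment 2 libraries had JQ1 with DMSO and 2 had DMSO alone, also for 60 min. The labels give no strain, genotype or dose. Whether both libraries of each group are from different cultures is not stated; p-values here reflect library-to-library spread, which may be technical.

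BET proteins, such as BRD2 and BRD3, bind acetylated histone tails through a pair of bromodomains in tandem and help release RNA polymerase II into elongation, in part through the kinase complex P-TEFb. JQ1 occupies both bromodomains of the BET family, while iBD2 is a name used for inhibitors that prefer the second one. P-TEFb is held inactive in a complex with the 7SK RNA and HEXIM1, and a rise of HEXIM1 mRNA is widely used as a readout of BET inhibition. Replication-dependent histone genes are short, mostly without introns, lie in clusters, and give mRNAs that end in a stem-loop in place of a poly(A) tail. Such mRNAs are retained in libraries made from ribosome-depleted total RNA, as here.

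The values are FPKM, a level per transcript length and library size, summed over the transcripts of a gene and divided by a size factor for each library. Aligned bases came to 4.36 and 4.71 gigabases in the iBD2 libraries and to 4.56 and 4.88 in the DMSO libraries. Fold changes are on the scale of log2(FPKM + 0.5), which understates the change of low genes, and a gene was called at a Benjamini-Hochberg adjusted p under 0.05 in a limma model of 14003 genes. All 12 pan-neuronal markers passed the filter on low values, with a summed level of 2276 and 2335 FPKM in iBD2 libraries and 2273 and 2230 FPKM in DMSO libraries. Of the genes of GABAergic striatal neurons, Gad1 (glutamate decarboxylase) stood at 374.9 and 379.3 FPKM with iBD2 against 392.4 and 379.8 FPKM with DMSO. In bulk RNA, fewer cells of a type and less RNA per cell cannot be told apart.

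With iBD2 alone few genes were called, and all of them were higher. In all, 24 genes rose (0.171% of those tested) and 0 fell (0%). An unadjusted p under 0.05 was reached by 480 genes that were higher (3.43%) and by 439 that were lower (3.14%), and limma voom on estimated reads called 3 higher and 1 lower, with 213 lower at an unadjusted p under 0.05. The middle 98% of log2 fold changes lay between -0.34 and 0.38, the median was 0.00, and 50.9% were above 0. Among the called genes, 2 changed at least 2-fold, both unnamed IDs. With the same number of libraries and the same DMSO group, SKF called 327 genes (2.34%), so calls could be made in this design. The SKF libraries held 7.20 and 4.70 aligned gigabases, so the first was deeper than the iBD2 and DMSO libraries. Fewer genes were called with iBD2 when any of the iBD2 or DMSO libraries was left out. That all 24 genes stayed above 0 in these fits was fixed in advance, since both iBD2 libraries stood above both DMSO libraries for all 24. JQ1 in the first experiment raised 252 genes (1.8%) and lowered 365 (2.61%). Those libraries were deeper, at 8.18 and 9.95 aligned gigabases with JQ1 and 7.23 and 8.13 with DMSO. The part of depth in these counts was not tested.

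**Figure D1:**
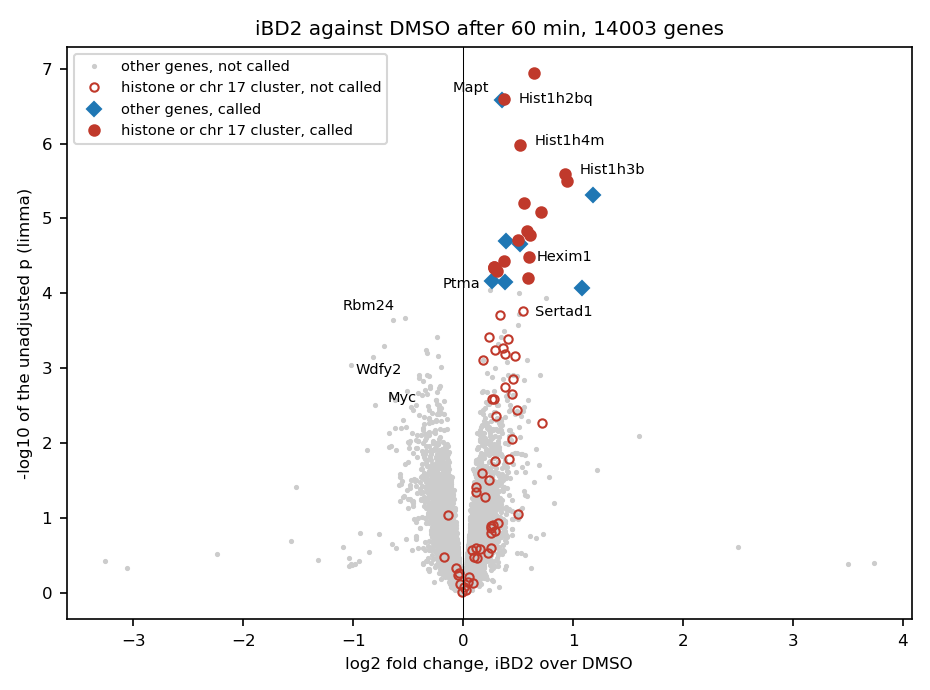
Each point is 1 of 14003 genes, with the log2 fold change of iBD2 over DMSO on the horizontal axis and the -log10 of the unadjusted limma p on the vertical axis. The 24 called genes lie to the right of 0, and 17 of them carry a histone symbol or lie in the histone cluster of chromosome 17.

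Histone genes and their neighbours in the histone cluster made up most of what rose. Of the 24 genes, 10 carried a histone symbol, 7 of these in the large histone cluster of chromosome 17 (Rnor_6.0 chr17:43614101-44841382) and 3 on chromosome 4. A further 7 without a histone symbol lay in the same window of chromosome 17, which held 49 tested genes, 14 of them called. Single-exon genes were 19 of the 24 (79.2%), against 8.32% of all genes tested. The promoters of 3 called histone genes and of Hexim1 are shown because they belong to the groups of genes on which the results turn. They are the 250 bases before the RefSeq start on build GRCr8, 5′ to 3′ on the gene's strand: Hist1h2bq on the minus strand of chr17:41869342-41869591, H2bc9 on the minus strand of chr17:47174370-47174619, hist1h2ail2 on the plus strand of chr17:47448652-47448901 and Hexim1 on the plus strand of chr10:88562639-88562888. Capitals mark the motif TATAA of the core promoter, the box CCAAT bound by NF-Y, or the octamer ATTTGCAT bound by Oct1, each searched on both strands, and the marked matches do not overlap.
Hist1h2bq: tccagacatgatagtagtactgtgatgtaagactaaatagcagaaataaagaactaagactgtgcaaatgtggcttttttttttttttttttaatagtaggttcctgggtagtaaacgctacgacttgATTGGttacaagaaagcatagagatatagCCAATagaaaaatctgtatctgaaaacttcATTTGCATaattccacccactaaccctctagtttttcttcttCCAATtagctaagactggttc
H2bc9: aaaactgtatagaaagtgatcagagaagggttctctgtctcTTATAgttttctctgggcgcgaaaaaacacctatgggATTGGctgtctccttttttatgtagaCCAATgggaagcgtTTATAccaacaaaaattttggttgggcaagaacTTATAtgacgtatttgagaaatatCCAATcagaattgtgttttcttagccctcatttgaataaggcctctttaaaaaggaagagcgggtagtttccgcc
hist1h2ail2: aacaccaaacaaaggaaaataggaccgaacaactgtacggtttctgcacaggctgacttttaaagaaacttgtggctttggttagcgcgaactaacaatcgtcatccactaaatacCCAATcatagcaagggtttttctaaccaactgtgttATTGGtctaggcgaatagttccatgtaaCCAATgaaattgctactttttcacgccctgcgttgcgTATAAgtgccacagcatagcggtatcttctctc
Hexim1: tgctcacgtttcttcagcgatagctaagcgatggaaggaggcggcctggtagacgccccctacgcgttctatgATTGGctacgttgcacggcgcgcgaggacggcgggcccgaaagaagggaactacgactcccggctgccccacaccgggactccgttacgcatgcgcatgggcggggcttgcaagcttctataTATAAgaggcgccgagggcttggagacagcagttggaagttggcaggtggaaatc
Symbols matched such a window for 11 of the 24 genes, and 6 of these windows lay among the same neighbouring genes as the called locus; the other 5 were not used. Of these 6, TATAA was present in 5, CCAAT in 6 and ATTTGCAT in 2, while over all 33469 RefSeq promoters of this length the shares were 24% for TATAA, 34% for CCAAT and 1.56% for ATTTGCAT. In hist1h2ail2 TATAA begins at position -33, and in Hist1h2bq ATTTGCAT begins at position -63. In H2bc9 the 3 TATAA matches read TTATA, on the other strand, the first at position -209, and are not shown to be core promoter motifs. A match describes these letters and is not evidence of a bound factor.

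The clearest rise was that of Hist1h2ail1 on the plus strand of chromosome 17 (Rnor_6.0 chr17:44763598-44764008), a single exon of 411 bases annotated as a histone gene. It had 61.3 and 58.1 FPKM in iBD2 libraries against 37.6 and 38.6 FPKM in DMSO libraries. Both iBD2 libraries stood above both DMSO libraries, and the log2 fold change was 0.64 ± 0.07 (SE, adjusted p = 0.0012). Hist1h2bq, which encodes an H2B core histone, had 31.5 and 31.9 FPKM in iBD2 libraries against 24.7 and 24.2 FPKM in DMSO libraries. Here too the groups were apart, by a log2 fold change of 0.37 ± 0.04 (adjusted p = 0.0012). These 2 genes stayed called under all 26 alternative settings, and no other gene did.

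Genes for H3 and H4 rose as well. Hist1h3b, an H3 gene (Rnor_6.0 chr17:43814773-43815183), had 13.6 and 13.1 FPKM with iBD2 against 5.99 and 7.71 FPKM with DMSO. No iBD2 library reached down to the DMSO range, and the log2 fold change of 0.93 ± 0.13 (adjusted p = 0.0072) was among the largest of any named gene. Hist1h4m, an H4 gene (Rnor_6.0 chr17:43673294-43673605), was the most abundant of the called genes with a histone symbol, at 96.2 and 103.2 FPKM with iBD2 against 72.4 and 66.4 FPKM with DMSO. The groups did not overlap, with a log2 fold change of 0.52 ± 0.07 (adjusted p = 0.0036). hist1h2ail2, at 3.90 and 2.97 FPKM with iBD2 against 1.72 and 1.37 FPKM with DMSO, and H2bc9, an H2B gene at 4.06 and 3.85 FPKM with iBD2 against 2.08 and 2.94 FPKM with DMSO, were lower in level. Their log2 fold changes were 0.94 ± 0.14 and 0.58 ± 0.10.

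On chromosome 4, Hist2h4, Hist1h4b and Hist1h2ao gave the same values to within 0.05 FPKM in every library, each 21.8 and 22.1 FPKM with iBD2 against 17.7 and 18.3 FPKM with DMSO (log2 fold change 0.28 ± 0.05, adjusted p = 0.033). The 3 loci are each 312 bases long, and their equal values show 1 measurement listed 3 times. Histone copies are close to identical in sequence, so the level of any single copy, and the histone type that its symbol names, is uncertain. Hist1h2ail1, for instance, is annotated at 411 bases, the length of Hist1h3b, and a second gene of that symbol had 14.2 and 15.2 FPKM with iBD2 against 10.1 and 9.68 FPKM with DMSO (log2 fold change 0.55 ± 0.09).

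Across the histone list, 42 of 47 genes were tested, 10 rose and 0 fell. The 10 became 6 with FPKM as deposited or without the third experiment, 3 with voom, 4 without either DMSO library and 3 without either iBD2 library. Its median log2 fold change was 0.28, against 0.00 over all genes, and 38 of 42 values were above 0. The groups were apart with iBD2 higher for 32 of the 42 (76.2%, against 19.4% of all genes) and with iBD2 lower for 1 (2.38%, against 16.6%). Summed over the list, the level was 1283 and 1329 FPKM in iBD2 libraries against 1145 and 1100 FPKM in DMSO libraries. The 32 histone genes that were not called ran from -0.06 to 0.50. By kind of histone gene, the 8 variants with names of their own, most of which are made outside S phase as well, had a median of 0.06 and 0 calls, and the other 34 had a median of 0.33. H3f3b, which encodes the replacement histone H3.3, had 249 and 266 FPKM with iBD2 against 245 and 231 FPKM with DMSO (adjusted p = 0.93). H2ax, the variant phosphorylated at DNA breaks, had 21.6 and 21.2 FPKM with iBD2 against 19.9 and 19.4 FPKM with DMSO (adjusted p = 0.76).

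Within the chromosome 17 window the median over 49 genes was 0.34, and 45 values were above 0. The 21 single-exon genes there without a histone symbol had a median of 0.31, and 6 of them rose. LOC684762 had 39.8 and 39.0 FPKM with iBD2 against 28.7 and 26.7 FPKM with DMSO, and LOC102548682 had 26.7 and 26.6 FPKM with iBD2 against 18.9 and 13.6 FPKM with DMSO. Their groups were apart, with log2 fold changes of 0.50 ± 0.08 (adjusted p = 0.022) and 0.71 ± 0.11 (adjusted p = 0.013). Both other loci of symbol LOC102548682 in the window were not called, at 0.34 and 0.30 (adjusted p = 0.092 and 0.45). The other 5 called IDs of the window ran from 0.31 to 0.61. The 3 genes of the window with over 2 exons, Zfp322a, Abt1 and Zfp184, were not called, at -0.13, 0.06 and 0.13. Cell cycle genes, which could move with histone genes in dividing cells, had 0 calls among 30 tested and a median of 0.03. Of the 30, 19 were above 0 (63.3%, against 50.9% of all genes). The groups were apart with iBD2 higher for 7 (23.3%, against 19.4%) and lower for 2 (6.67%, against 16.6%). Mcm2, a replication licensing factor of low level, had 0.992 and 0.953 FPKM with iBD2 against 1.36 and 1.10 FPKM with DMSO (adjusted p = 0.78). The part of cell division was not tested.

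**Figure D2:**
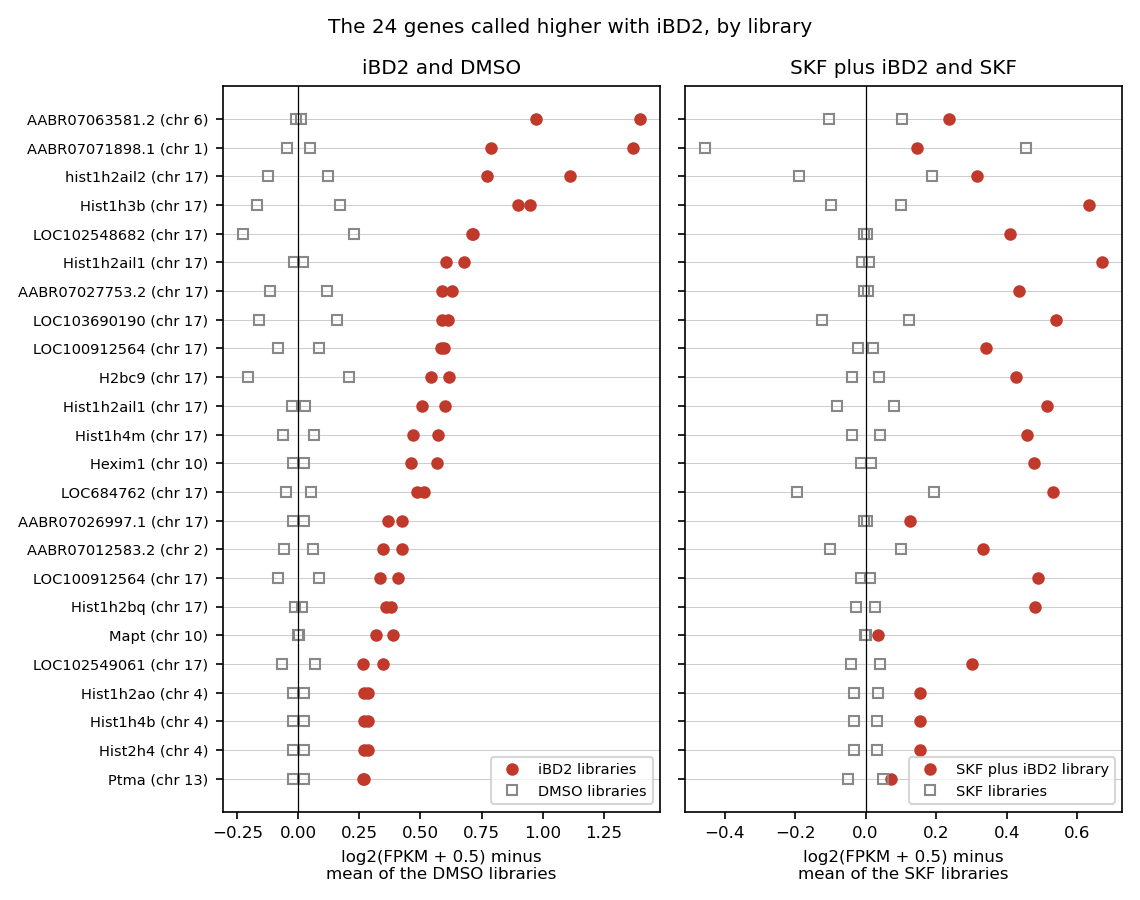
For each of the 24 genes called higher with iBD2, points give log2(FPKM + 0.5) in single libraries minus the mean of their control libraries, with iBD2 and DMSO at left and the SKF plus iBD2 library and SKF at right. Circles are libraries with iBD2 and squares those without; at left both circles lie above both squares for all 24 genes, and at right the circle lies above both squares for 23.

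Hexim1, which encodes the inhibitor of P-TEFb and lies on chromosome 10 (Rnor_6.0 chr10:91200874-91202984), had 6.02 and 6.52 FPKM in iBD2 libraries against 4.30 and 4.17 FPKM in DMSO libraries. The groups were apart, and the log2 fold change was 0.51 ± 0.09 (adjusted p = 0.022). The call was lost under 9 of 26 alternatives, among them the fit of the 4 libraries alone (adjusted p = 0.073) and the removal of any of the 4 (adjusted p = 0.10 to 0.30), while the log2 fold change stayed between 0.46 and 0.57. Of the 23 tested genes of BET proteins and P-TEFb, Hexim1 was the only one called, and the median was 0.02. Cdk9, the kinase of P-TEFb, had 22.3 and 21.8 FPKM with iBD2 against 20.5 and 19.8 FPKM with DMSO (0.13 ± 0.05, adjusted p = 0.75). Brd3, a BET protein gene, had 24.8 and 25.5 FPKM with iBD2 against 23.8 and 24.1 FPKM with DMSO and was not called (adjusted p = 0.86).

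Among 13 tested genes often reported to respond to BET inhibitors, Hexim1 was again the only call. Sertad1, a transcriptional coregulator, had 3.53 and 3.11 FPKM with iBD2 against 1.80 and 1.74 FPKM with DMSO, and its groups were apart, but it missed the threshold (0.75 ± 0.15, adjusted p = 0.059). Txnip, which binds thioredoxin, had 5.51 and 6.73 FPKM with iBD2 against 4.48 and 5.32 FPKM with DMSO (0.29 ± 0.13, adjusted p = 0.76). The proto-oncogene Myc had 13.3 and 13.5 FPKM with iBD2 against 17.4 and 16.0 FPKM with DMSO. Both iBD2 libraries were lower, and the difference of -0.30 ± 0.08 was not called (adjusted p = 0.34), though it was when read coverage over the longest transcript replaced the sum over transcripts (-0.32, adjusted p = 0.038).

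Among the 7 called genes outside the histone group were Mapt, Ptma and 4 IDs without a gene name. Mapt encodes tau, a microtubule-binding protein of axons, and its summed level was 335 and 319 FPKM with iBD2 against 256 and 255 FPKM with DMSO (0.35 ± 0.04, adjusted p = 0.0012). This sum rests on a short annotated transcript of 1276 bases, which had 110.2 and 89.2 FPKM with iBD2 against 17.4 and 15.3 FPKM with DMSO. The main transcript of 5241 bases had 215 and 223 FPKM with iBD2 against 234.4 and 234.0 FPKM with DMSO. When all reads of the gene were set over the longest transcript the log2 fold change was 0.04 (adjusted p = 0.97), so the call depends on how reads were shared among transcripts. In the SKF plus iBD2 library the short transcript had 18.9 FPKM, against 15.6 and 16.2 FPKM with SKF. A high level of it was not particular to iBD2, since the SKF libraries of the first experiment had 97.0 and 69.2 FPKM and the DMSO libraries beside them 12.4 and 8.85 FPKM.

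Wdfy2, which encodes an endosomal protein with WD repeats, showed the same kind of shift. Its transcript of 6069 bases was listed at 0 in both iBD2 libraries, against 1.65 and 2.09 FPKM with DMSO, while that of 1621 bases had 1.38 and 1.28 FPKM with iBD2 against 0.0195 and 0.111 FPKM with DMSO. The library with SKF and iBD2 had 2.0 FPKM of the long transcript and 0.167 FPKM of the short one, against 1.84 and 1.85 FPKM of the long one with SKF. The summed gene was not called (-0.40 ± 0.11, adjusted p = 0.29), but it was over the longest transcript (-1.47, adjusted p = 3.6e-07) and with voom (-2.40, adjusted p = 1.2e-06).

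**Figure D3:**
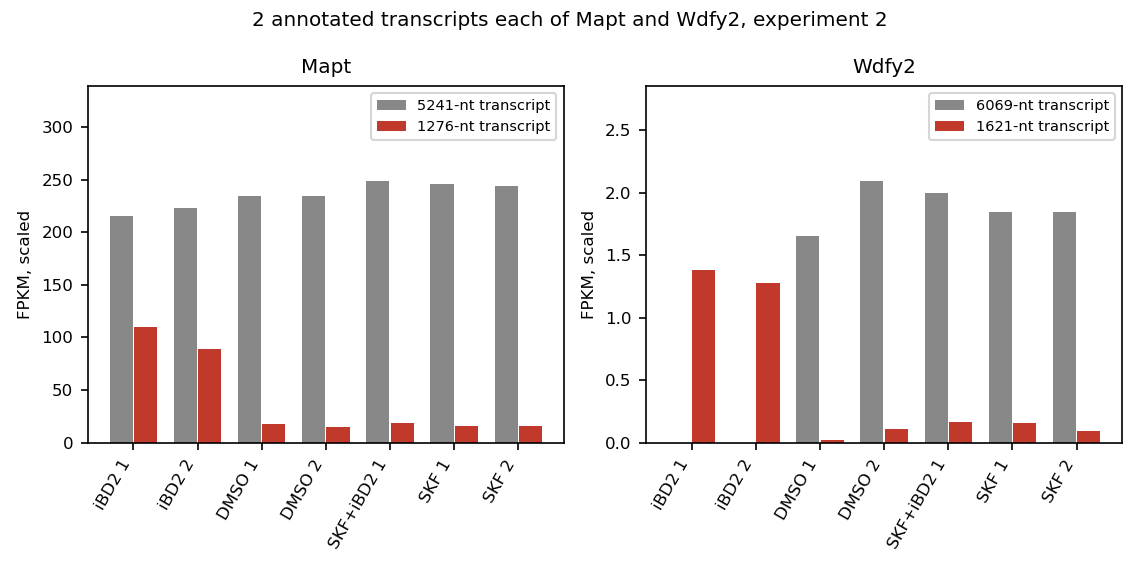
Bars give the scaled FPKM of the 2 most abundant annotated transcripts of Mapt (left) and Wdfy2 (right), grey for the longer and red for the shorter. They cover each of the 7 analysed libraries of the second experiment. The shorter transcript stands out in both iBD2 libraries and is low in the SKF plus iBD2 library.

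Ptma encodes prothymosin alpha, an acidic nuclear protein that binds histones, and had 25.7 and 25.8 FPKM with iBD2 against 21.6 and 21.0 FPKM with DMSO (0.27 ± 0.05, adjusted p = 0.043). The locus of this symbol is a single exon of 766 bases on chromosome 13, and how far its reads are shared with copies elsewhere was not tested. AABR07026997.1, on chromosome 17 outside the cluster, had 22.2 and 23.1 FPKM with iBD2 against 17.3 and 16.8 FPKM with DMSO (adjusted p = 0.022). AABR07012583.2 on chromosome 2 had 47.2 and 49.7 FPKM with iBD2 against 38.6 and 35.4 FPKM with DMSO (0.39 ± 0.07, adjusted p = 0.043). The largest fold changes belonged to AABR07063581.2, at 0.660 and 1.06 FPKM with iBD2 against 0.0872 and 0.0962 FPKM with DMSO, and AABR07071898.1, at 0.937 and 0.461 FPKM with iBD2 against 0.0742 and 0.0375 FPKM with DMSO. Their log2 fold changes were 1.19 ± 0.18 and 1.08 ± 0.21, and the second kept its call in 4 of 26 alternatives.

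No gene fell past the threshold. The decrease with the smallest p was that of Rbm24, an RNA-binding splicing regulator, at 2.21 and 1.92 FPKM with iBD2 against 2.91 and 3.48 FPKM with DMSO (-0.52 ± 0.11, adjusted p = 0.097). Triqk, a small membrane protein, followed at 11 and 11.1 FPKM with iBD2 against 13.6 and 12.6 FPKM with DMSO (adjusted p = 0.15). Jrk, a DNA-binding protein of the nucleus, had 3.56 and 3.24 FPKM with iBD2 against 4.42 and 4.24 FPKM with DMSO, and Lzts2, a leucine zipper protein that restrains Wnt signalling, had 2.54 and 2.78 FPKM with iBD2 against 3.54 and 3.37 FPKM with DMSO (adjusted p = 0.28 each). In all 4 genes the groups were apart, as they were with iBD2 lower for 16.6% of all genes. A gene of symbol 7SK on chromosome 3 had 0.423 and 0.594 FPKM with iBD2 against 2.17 and 1.04 FPKM with DMSO (-1.02 ± 0.25, adjusted p = 0.24); the annotation holds many genes of this symbol, and this one does not stand for 7SK RNA as a whole. Another, on chromosome 14, was not called either (-0.80, adjusted p = 0.41) but fell in the fit with a replicate block (adjusted p = 0.043).

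The genes moved by JQ1 in the first experiment shifted in the same direction with iBD2. Their medians were smaller with iBD2, but the genes were chosen by their JQ1 values, which enlarges the JQ1 medians. How much smaller the iBD2 effect was cannot be read from these medians. No library is shared between the JQ1 and iBD2 comparisons, and the experiment differs along with the inhibitor. The 252 genes raised by JQ1 had a median log2 fold change of 0.09 with iBD2 and 0.45 with JQ1, and 201 of them (79.8%) were above 0 with iBD2, against 50.9% of all genes. In single libraries the median over these genes, relative to the DMSO mean, was 0.09 and 0.08 with iBD2 and 0.01 and -0.01 with DMSO. The 365 genes lowered by JQ1 had a median of -0.08 with iBD2 and -0.40 with JQ1, and 280 of them (76.7%) were below 0 with iBD2. Across the 617 genes called with JQ1 the 2 sets of fold changes correlated at Pearson r = 0.74 and Spearman rho = 0.65, and across all 14003 genes at 0.24 and 0.17. These correlations are across genes, which are not independent replicates.

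Calls overlapped unevenly. Of the 24 genes raised by iBD2, 20 were also raised by JQ1, which is 83.3% of the iBD2 calls and 7.94% of the JQ1 calls. Of all genes, JQ1 raised 1.8% and iBD2 0.171%. The 36 genes raised at least 2-fold by JQ1 had a median of 0.48 with iBD2, 15 of them rose with iBD2 (0.171% of all genes did), and all 36 values were above 0. Without histone genes and the chromosome 17 window, 201 genes raised by JQ1 were left, with a median of 0.06, 151 values above 0 and 3 calls. Of the 365 genes lowered by JQ1, 0 were called with iBD2, and at an unadjusted p under 0.05 71 were lower and 6 higher, against 3.14% and 3.43% of all genes.

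**Figure D4:**
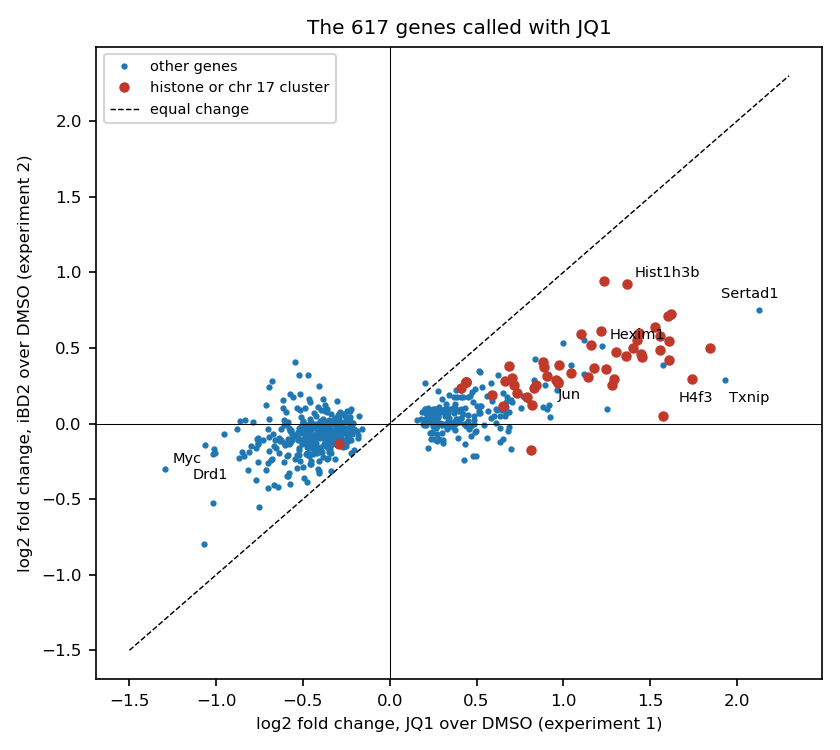
The 617 genes called with JQ1 are plotted by log2 fold change with JQ1 (horizontal, first experiment) and with iBD2 (vertical, second experiment), histone and chromosome 17 cluster genes in red. The dashed line marks equal change; Sertad1 stands at 2.13 and 0.75, Hexim1 at 1.22 and 0.51 and Myc at -1.30 and -0.30.

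The difference between the effects of iBD2 and JQ1 was tested gene by gene, each effect against the DMSO libraries of its own experiment. It was called for 133 genes, 59 with a higher value for iBD2 (0.421%) and 74 with a lower one (0.528%). All 74 were genes raised by JQ1 and 58 of the 59 were genes lowered by JQ1, so in 132 cases the iBD2 effect was smaller in size or of the other sign. Hexim1 rose by 0.51 with iBD2 and 1.22 with JQ1 (difference -0.71, adjusted p = 0.0079). Sertad1 differed by -1.38 (adjusted p = 0.0024), Txnip by -1.64 (adjusted p = 0.00028) and Myc by 0.99 (adjusted p = 0.00016). Jun, an immediate early transcription factor, had 13.5 and 13.3 FPKM with iBD2 against 12.2 and 12.3 FPKM with DMSO (0.12 ± 0.05), a change of 0.92 with JQ1, and a difference of -0.79 (adjusted p = 1.8e-05). With no doses given, a smaller effect at unknown doses cannot be told apart from a difference between the compounds.

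Histone genes were among those that differed: 17 of the 42 tested had a lower value for iBD2, against 0.528% of all genes. Hist1h2bq rose by 0.37 with iBD2 and 1.18 with JQ1 (difference -0.81, adjusted p = 6.3e-06). H2ac20, an H2A gene on chromosome 2, had 5.47 and 5.11 FPKM with iBD2 against 4.90 and 5.30 FPKM with DMSO, overlapping, while its change with JQ1 was 1.57 (difference -1.52, adjusted p = 0.00027). For Hist1h3b the difference of -0.44 was not called (adjusted p = 0.49), with an unadjusted 95% interval of -0.83 to -0.049.

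Among the largest decreases with JQ1 were 3 receptor genes, Drd1, Gpr52 and Npy1r, which were not called with iBD2. They do not stand for the striatal projection neuron list. Of its 44 tested genes JQ1 raised 4 and lowered 4, against 1.8% and 2.61% of all genes. The difference between inhibitors was called higher for 2 of the 44 and lower for 2, against 0.421% and 0.528% of all genes. Drd1, the D1 dopamine receptor of direct-pathway neurons, had 7.48 and 7.92 FPKM with iBD2 against 9.09 and 8.74 FPKM with DMSO (-0.20 ± 0.09, adjusted p = 0.76), a change of -1.02 with JQ1, and a difference of 0.82 (adjusted p = 0.0038). Gpr52, an orphan receptor enriched in striatum, had 8.0 and 8.88 FPKM with iBD2 against 9.70 and 9.41 FPKM with DMSO (-0.17, adjusted p = 0.79), with a difference of 0.84 from its JQ1 change of -1.01 (adjusted p = 0.0018). Npy1r, a receptor of neuropeptide Y, had 11.5 and 12.2 FPKM with iBD2 against 13.3 and 12.9 FPKM with DMSO, with a difference of 0.93 (adjusted p = 0.00087). In all 3 the iBD2 libraries were the lower ones, as for 16.6% of all genes.

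The library that received SKF with iBD2 gave a second reading of iBD2 in libraries that are not among the 4. With 1 library on one side, that library is assumed to vary like those of other groups. Against SKF, 3 genes were called (0.0214%): Hist1h2ail1 and Hist1h2bq were higher and Vps25 was lower. Hist1h2ail1 had 53.1 FPKM with SKF and iBD2 against 33.0 and 33.4 FPKM with SKF (0.67, adjusted p = 0.0046), and Hist1h2bq had 29.7 FPKM against 21.5 and 20.7 FPKM with SKF (0.48, adjusted p = 0.00077). All 24 genes raised by iBD2 alone were above 0 there, against 50.6% of all genes, and in 23 the SKF plus iBD2 library stood above both SKF libraries, as it did for 36.6% of all genes. Hexim1 had 7.15 FPKM with SKF and iBD2 against 4.95 and 5.06 FPKM with SKF (0.48, adjusted p = 0.3), and Sertad1 8.81 FPKM against 5.40 and 5.15 FPKM with SKF (0.69, adjusted p = 0.57). The histone list had a median of 0.24, the genes raised by JQ1 one of 0.10 and those lowered by JQ1 one of -0.10, against 0.00 for all genes.

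The effect of iBD2 with SKF minus that without SKF was called for 2 genes (0.0143%), Vps25 and Sf3b6, both lower. Vps25, an ESCRT-II subunit, had 2.07 FPKM in the SKF plus iBD2 library against 25.5 and 25.4 FPKM with SKF, and 27.5 and 24.7 FPKM with iBD2 against 26.2 and 25.7 FPKM with DMSO. In the same library the ID AABR07072184.1 had 18.4 FPKM, against 0.0353 and 0 FPKM with SKF. Its annotated span overlaps that of Vps25, and the Vps25 transcript of 1085 bases was listed at 0 there. How reads were shared between these IDs was not tested, so a loss of Vps25 RNA is not shown. Sf3b6, a subunit of the U2 spliceosome particle, had 5.74 FPKM with SKF and iBD2 against 8.63 and 8.08 FPKM with SKF, and 8.53 and 8.13 FPKM with iBD2 against 6.68 and 6.23 FPKM with DMSO.

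Immediate early genes, the first genes switched on by neuronal activity and by D1 receptor signalling, were mostly above 0 with iBD2, and none passed the test. Of 45 tested, 0 were called, 37 were above 0, the median was 0.16, and the groups were apart with iBD2 higher for 25 (55.6%, against 19.4% of all genes). The median relative to the DMSO mean was 0.23 and 0.11 in the iBD2 libraries and 0.04 and -0.04 in the DMSO libraries. Fos had 77.5 and 62.5 FPKM with iBD2 against 58.6 and 50.8 FPKM with DMSO (0.35 ± 0.17, adjusted p = 0.78). Npas4, an activity-dependent factor, had 32.4 and 24.5 FPKM with iBD2 against 20.4 and 18.2 FPKM with DMSO (0.54 ± 0.20, adjusted p = 0.67). Nr4a1, a nuclear receptor, had 84.5 and 56.7 FPKM with iBD2 against 49.0 and 44.8 FPKM with DMSO (adjusted p = 0.76), and Junb 45.4 and 35.3 FPKM with iBD2 against 30.8 and 28.7 FPKM with DMSO (adjusted p = 0.5). In these 4 genes the first iBD2 library was the highest of the 4 libraries and the groups did not overlap. Under SKF the same list had 37 of 45 genes raised, against 283 of all 14003 genes, and a median of 1.23. In the single SKF plus iBD2 library against SKF its median was 0.12, and 38 of 45 values were above 0 (84.4%, against 50.6% of all genes). With JQ1 in the first experiment 11 of the 45 were raised and 4 lowered, against 1.8% and 2.61% of all genes, with a median of 0.24. Nr4a2 and Klf4 overlapped between iBD2 and DMSO, and Bdnf, a neurotrophin gene of the later response, had 2.83 and 3.10 FPKM with iBD2 against 3.07 and 2.54 FPKM with DMSO.

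Mitochondrially encoded genes were also higher in both iBD2 libraries. They held 7.06 and 7.34% of the bases in annotated transcripts there, against 6.53 and 6.84% in DMSO libraries. All 13 were above 0, with a median of 0.14, and 0 were called. Their part in the other results was not tested. Cytosolic ribosomal protein genes had 0 calls among 94 and a median of 0.04, and genes spanning over 300 kb, a class sensitive to elongation, had 0 calls among 335, a median of 0.05 and, at an unadjusted p under 0.05, 24 higher and 4 lower, against 3.43% and 3.14% of all genes.

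Of 44 tested genes of striatal projection neurons, 0 were called and the median was 0.01. Drd2, the D2 dopamine receptor, had 26.1 and 26.5 FPKM with iBD2 against 27.0 and 27.5 FPKM with DMSO (-0.05, adjusted p = 0.97), and Ppp1r1b, which encodes DARPP-32, had 137 and 137 FPKM with iBD2 against 138 and 130 FPKM with DMSO. Glutamate receptor and synapse genes (44 tested, median 0.05), ion channel genes (48, median 0.03), neuropeptide genes (32, median -0.03), later activity and cAMP response genes (33, median -0.03) and cholesterol synthesis genes (24, median -0.05) had 0 calls each. The nearest to a call among these was Pim1, a kinase gene, at 2.94 and 2.42 FPKM with iBD2 against 1.64 and 1.68 FPKM with DMSO (adjusted p = 0.3). Of the glutamate receptor and synapse genes 36 were above 0 and 8 below (81.8% above, against 50.9% of all genes). Their groups were apart with iBD2 higher for 21 (47.7%, against 19.4%) and lower for 1 (2.27%, against 16.6%). Of the cholesterol synthesis genes 18 were below 0 and 6 above (75% below, against 49.0% of all genes). Lists of histone deacetylases and acetyltransferases, inflammatory, interferon, stress, hypoxia, Krueppel-like factor, phosphodiesterase and RGS, collagen and nuclear respiratory chain genes also had 0 calls, with medians between -0.01 and 0.04. A gene that was not called is not shown to be unchanged.

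Markers of other cells did not reach a call in any list, while 14 of 15 astrocyte markers (median 0.07) and 12 of 16 microglial markers (median 0.09) were above 0, against 50.9% of all genes. The summed level of 15 tested astrocyte markers was 239 and 248 FPKM in iBD2 libraries against 238 and 226 FPKM in DMSO libraries, and that of 16 microglial markers 75.4 and 74.6 FPKM in iBD2 libraries against 71.9 and 67.3 FPKM in DMSO libraries. The 13 tested oligodendrocyte lineage markers summed to 38.5 and 39.6 FPKM in iBD2 libraries against 40.4 and 37.8 FPKM in DMSO libraries, and the 11 fibroblast and matrix markers to 90.2 and 91.3 FPKM in iBD2 libraries against 91.1 and 80.0 FPKM in DMSO libraries. Of 16 endothelial and mural markers 3 passed the filter on low values, and of all marker genes only Lum, a fibroblast gene, was listed at 0 in all 4 libraries. The part of cell composition in the results was not tested.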

How the data were processed

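RNA of primary rat striatal neurons was sequenced from stranded, ribosome-depleted libraries, per the labels. Per the submitters' processing notes STAR, StringTie, DESeq2, Trim Galore and FastQC were used on Rnor_6.0. Versions, and whether counting used strand, are not given in the sources used here; values of overlapping and of antisense genes are therefore uncertain. The authors deposited StringTie transcript tables with FPKM and read coverage. Transcript FPKM were summed by gene and divided by a median-ratio size factor (0.955 to 1.07). Genes with at least 0.5 FPKM in at least 2 libraries and a transcript of at least 200 bases were kept. limma 3.58.1 in R 4.3.3 fitted log2(FPKM + 0.5) with 12 group means over 23 libraries (11 residual degrees of freedom), trend and robust variances, and Benjamini-Hochberg adjustment. For the SKF plus iBD2 group 1 library was analysed here. FPKM hold no counts, so a count model was not the main test; read depth was taken from deposited coverage times length. The fit was tested on simulated data. Named genes were the 15 largest called rises and falls without overlap (filled to 10 by smallest p where fewer were called), for each list the 4 members, at most, with the smallest p, called genes of the differences, the 10 largest called changes each way with JQ1, and 18 genes given by name; the members and lists were chosen with earlier results of these data known. Genes outside that rule (Gad1, H3f3b, Nr4a2, Zfp322a, Abt1, Zfp184, Lum, AABR07072184.1) and the transcripts shown were named after their values were seen. Alternatives changed scaling, pseudocount, filter, libraries, fit (limma voom on estimated reads, a replicate block) and, chosen after seeing the data, gene coverage over the longest transcript and a fit without the third experiment. Promoters are from RefSeq (GRCr8), matched by symbol and kept where, of the 10 genes with unique symbols nearest to the locus in the files, at least 5 lay within 1 Mb of the promoter in RefSeq.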

Additional observations from a re-analysis of the deposited data

Results flagged for a closer look

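The difference of the iBD2 effect, with SKF minus without SKF, passed the threshold for 2 genes, and each rests on the single SKF plus iBD2 library. For Vps25 the difference was -3.34 on the log2 scale, where that library had 2.07 FPKM. In it the Vps25 transcript of 1085 bases was listed at 0. The overlapping ID AABR07072184.1 had 18.4 FPKM there, against 0.0353 and 0 FPKM with SKF. How reads were shared between these IDs was not tested, so a loss of Vps25 RNA is not shown. For Sf3b6 it was -0.85 (adjusted p = 0.02, limma), with iBD2 above DMSO and the SKF plus iBD2 library below both SKF libraries.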

How the results depend on the processing

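All 24 genes raised by iBD2 stayed above 0 under each of 26 alternatives in which they were tested. Where only the set of libraries, the pseudocount, the filter or the replicate block changed, this sign was fixed in advance. The reason is that both iBD2 libraries stood above both DMSO libraries for all 24. Only FPKM as deposited, voom and gene coverage could have changed a sign. The count of calls, 24, moved to 9 with FPKM as deposited, 4 with limma voom (3 higher, 1 lower) and 13 without the third experiment, and leaving out 1 library gave 5 to 27. For SKF plus iBD2 against SKF, 3 calls became 200 with no filter on low FPKM, 11 with each experiment fitted alone, 5 with voom, 7 without the third experiment and 5 with gene coverage, and 2 to 6 with 1 library left out. For the difference of iBD2 effects, 2 calls became 1 with FPKM as deposited and 144 with no filter, and 1 to 4 with 1 library left out. JQ1 called 617 genes, against 384 when each experiment was fitted alone and 322 to 648 with 1 library left out, and with FPKM as deposited its split was 204 higher and 423 lower. The difference between inhibitors had 133 calls, 65 to 147 with 1 library left out, split 36 higher and 72 lower with FPKM as deposited. SKF in the second experiment gave 205 to 356 calls and in the first 239, 157 when fitted alone and 159 to 237 with 1 library left out. The histone median of 0.28 was 0.24 with FPKM as deposited and 0.27 to 0.30 with 1 library left out. The median of genes raised by JQ1, 0.09, was 0.04999 with FPKM as deposited and 0.0827 to 0.0988 with 1 library left out. That of genes lowered by JQ1, -0.08, was -0.12 with FPKM as deposited, -0.0829 and -0.0717 with pseudocounts of 0.1 and 1, -0.0872 with voom, and -0.0853 to -0.0742 with 1 library left out. The difference between inhibitors for Mapt, 0.31, turned to -0.013 with voom and -0.0086 with gene coverage; the cause was not tested. A similar total of iBD2 calls did not mean the same genes. With no filter on low FPKM there were 24 calls (18 higher, 6 lower), 10 of them among the 24. Each experiment fitted alone gave 22 calls (21 higher, 1 lower), 12 of them among the 24. The 4 iBD2 and DMSO libraries alone gave 22 calls, all higher, with 12 among the 24. Gene coverage gave 27 calls (25 higher, 2 lower), 23 of them among the 24. A replicate block gave 25 calls (24 higher, 1 lower), 19 of them among the 24. Deviations of same-numbered libraries correlated at -0.09 between iBD2 and DMSO and at -0.12 to 0.34 over the groups of the second experiment, and since not every value was above 0.1 the numbers were not taken as pairs. With 2 libraries a group and a median SE of 0.083, small changes of low genes were not detectable.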
